A study of Neurospora crassa OR74A with 13 samples.

Results

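Wild-type Neurospora crassa that had been left without a carbon source for 4 h was compared with the same strain kept on sucrose for 4 h. N. crassa is a filamentous ascomycete that grows on plant material and forms orange asexual spores, the conidia. The comparison uses 6 of the 13 RNA-seq libraries of a study of how cellodextrins, short chains of glucose released from cellulose, induce lignocellulose-degrading enzymes. It was chosen by the sample titles alone, 3 no carbon libraries against 3 sucrose libraries, and it covers all 9733 genes that the deposited tables measure. After genes with almost no signal were set aside, 8759 genes were tested. All 6 cultures were the wild-type reference strain FGSC 2489, started from 1000000 conidia per mL, grown for 16 h in sucrose medium, washed and moved to fresh medium. Sucrose was present again in one group, and no carbon source was added in the other. The series' design text calls the libraries biological triplicates, and each is labelled as a copy of an earlier deposit. The polyadenylated RNA was fragmented, copied with random primers and sequenced.

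The question is which genes change when the sugar is taken away and nothing replaces it. Filamentous fungi on a preferred sugar hold down the genes for using other carbon sources, a state called carbon catabolite repression, in which the zinc-finger repressor CRE-1 takes part. Loss of the sugar can release these genes, and a soluble inducer is then needed for high expression: CLR-1 and CLR-2 activate the cellulase genes and XLR-1 the xylanase genes. Starved hyphae are also known to recycle their own contents through the vacuole, to slow ribosome production and, in air, to form conidia.

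Expression is given as FPKM as the authors deposited it, and the transcripts of a gene were summed. By its name FPKM is fragments per kilobase of transcript scaled to the number of mapped fragments, but the deposited values hold a further factor, given below. Values are given in the order of libraries 1, 2 and 3. Differences are no carbon minus sucrose on the log2(FPKM + 1) scale with their standard error, from limma's moderated test over 9 wild-type libraries, the 3 on Avicel (microcrystalline cellulose) included. A gene is called where the Benjamini-Hochberg adjusted p over all tested genes is under 0.05. Fewer cells of a kind and less RNA per cell cannot be told apart in such bulk samples.

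The aligned bases that the deposited coverage implies ran from 2102 to 5640.4 megabases on no carbon and from 480.1 to 2149.9 on sucrose, where library 1 is the shallowest of the 6. Between 718 and 1002 genes were listed at 0 on no carbon, against 1645 to 2341 on sucrose. FPKM summed over all genes to between 3555456 and 3654968 on no carbon and between 5272945 and 7102823 on sucrose. The deposited values thus do not share 1 total, and the way they are scaled moves the balance of rises and falls. Sucrose libraries 2 and 3 were most alike (Pearson r = 0.989 across genes, which are not independent), and no carbon libraries 1 and 2 least (0.951).

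Taking away the sugar changed most of the transcriptome. Of the tested genes, 3522 (40.2%) were called higher and 2111 (24.1%) lower on no carbon. These 2 shares are the background set beside the gene lists, and they take no account of expression level, with which the shares change. The 2 groups do not overlap in 72.1% of the tested genes and in 5554 of the 5633 called, so a lack of overlap marks most genes. For the largest rises and falls named below it was also a condition of their choice. At least 2-fold differences were called for 2933 higher and 1543 lower genes, at least 16-fold ones for 494 and 237, and at least 256-fold ones for 29 and 1. With the values as deposited, rises made up 62.5% of the calls. Quantile normalization gave 2473 higher and 2535 lower genes (49.4% rises), and scaling all libraries to an equal sum of FPKM gave 5210 and 1100 (82.6% rises). List counts under either scaling are to be set against these counts of the 8759 tested genes, not against the 2 shares as deposited. The median difference of all tested genes was 0.39 as deposited, -0.041 after quantile normalization and 1.19 with equal sums, so a small change is best read against these values.

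Rises and falls sat at different levels of expression. Among the 1047 tested genes with a mean under 10 FPKM over the 6 libraries, 679 (64.85%) were called higher and 6 (0.573%) lower. Among the 699 genes with a mean of 1000 FPKM or more, 170 (24.3%) were called higher and 377 (53.9%) lower. A list of weak or of abundant genes is thus to be read against these shares too. The excess of rises among weakly expressed genes depends on the scaling: after quantile normalization 123 of the lowest class were higher and 207 lower. Depth moved with this result, since 2 of the no carbon libraries held more aligned bases than any sucrose library, and its part in the result was not tested. There were 157 genes listed at 0 in all 3 sucrose libraries and at 10 FPKM or more in all 3 no carbon libraries, and 0 with the reverse pattern.

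**Figure D1:**
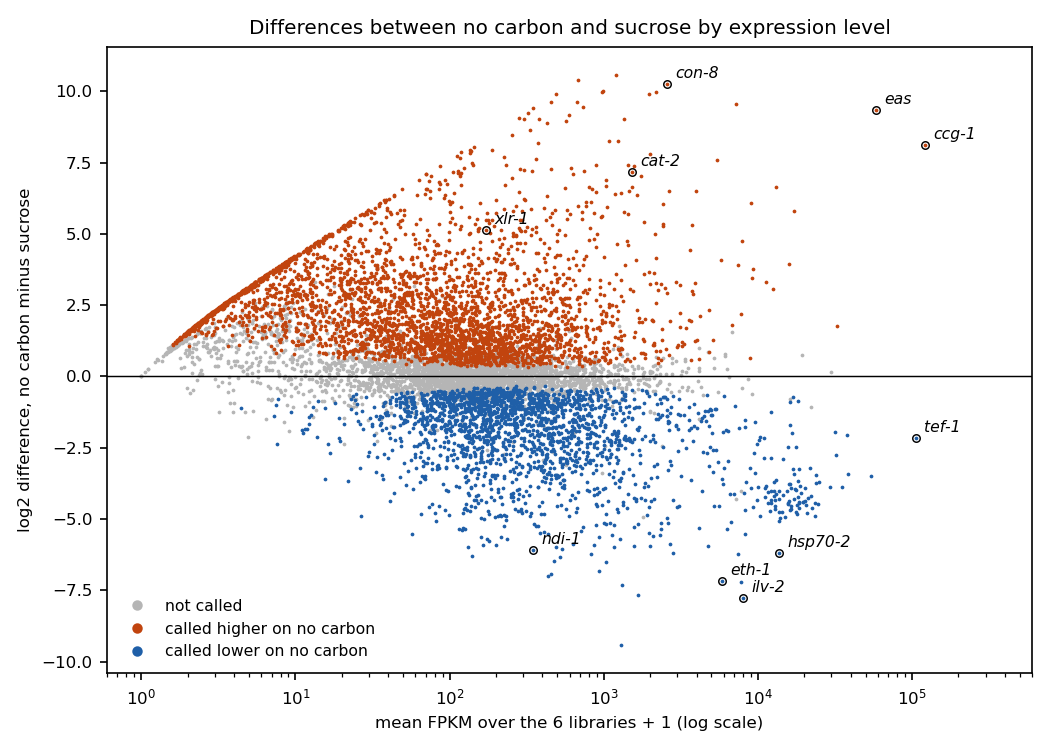
Each point is 1 of the 8759 tested genes: its mean FPKM over the 6 libraries plus 1 (log scale) and its log2 difference, no carbon minus sucrose, coloured by whether it was called higher, called lower or not called. The called genes of low mean lie almost all above 0, while the most abundant genes spread both ways, with eas and ccg-1 at the upper right and ilv-2 and eth-1 at the lower right.

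The lists of genes by role show which functions went which way. All tested members were called lower in the lists of cytosolic ribosomal proteins, mitochondrial gene expression and the respiratory chain outside complex I, and amino acid biosynthesis came close. At the other end, 8 of 11 genes of cellobiose use and 7 of 11 of starch use were called higher, and neither list had a member called lower, against 2 and 2 after quantile normalization. The conidiation list as drawn up had 13 of 22 members higher and 3 lower. It held 11 acw genes of anchored cell wall proteins, which were set apart after values were seen, and all 3 lower members are acw genes. Lists near the background in both directions were LPMOs (5 higher and 2 lower of 11), peroxisome genes (9 and 3 of 21) and the acw genes (4 and 3 of 11).

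**Figure D2:**
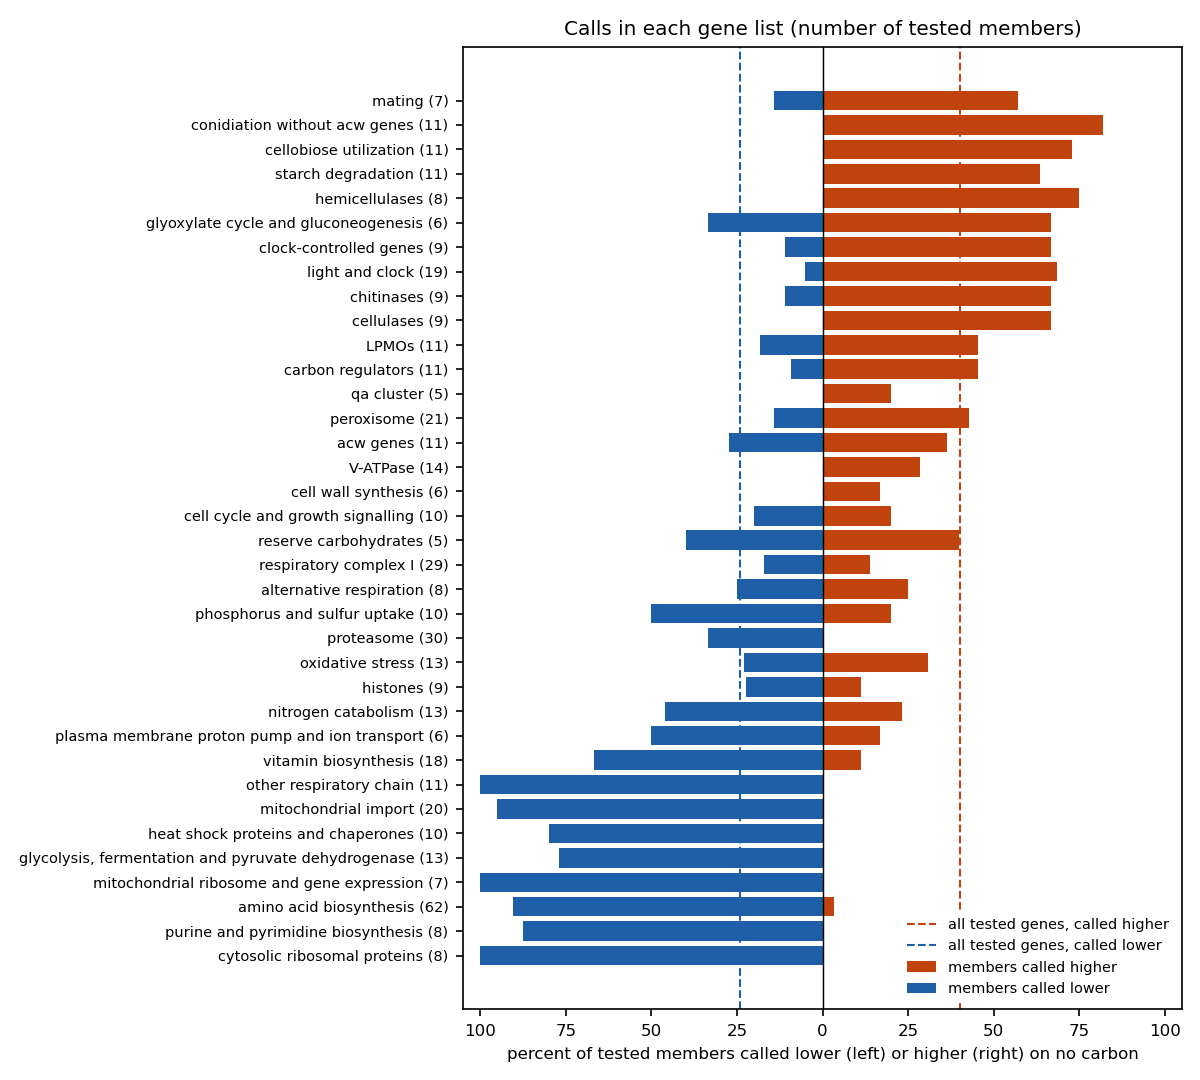
For each list with 5 or more tested members (number in brackets), the bars give the percent of members called lower (left) and higher (right) on no carbon, and the dashed lines give the same shares over all tested genes, 24.1% and 40.2%. Lists are ordered by their median log2 difference, from ribosomal proteins at the bottom to mating genes at the top.

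The regulators of carbon use did not move as 1 block. 5 of 11 (45.45%) were called higher and 1 (9.09%) lower, against 40.2% and 24.1% of all tested genes. The median difference was 0.73, against 0.39 over all tested genes. The share called higher is thus near the background, and the values below are those of single genes. xlr-1, the xylanase regulator, stood at 331, 324 and 347 FPKM on no carbon and 5.39, 10.5 and 10.5 on sucrose (difference 5.15 ± 0.24, adjusted p = 1.26e-06). The no carbon libraries lie close together and far above sucrose. clr-1, whose product activates cellobiose and cellulase genes, stood at 172, 178 and 221 FPKM on no carbon and 53.01, 43.3 and 40.4 on sucrose (difference 2.04 ± 0.25, adjusted p = 0.000149), and acu-15, an activator of acetate use genes, at 1388, 1521 and 1379 FPKM on no carbon and 159, 187 and 163 on sucrose (difference 3.07 ± 0.21, adjusted p = 6.12e-06). Neither gene's groups overlap. clr-2, the second cellulase activator, was at 9.18, 19.7 and 6.63 FPKM on no carbon and 2.13, 2.74 and 2.42 on sucrose (difference 1.78 ± 0.35, adjusted p = 0.00219). Its levels were low in both groups, without overlap, and under quantile normalization its difference turned to -0.43 (adjusted p = 0.502). vib-1, a transcription factor needed for growth on cellulose, was lower, at 183, 373 and 233 FPKM on no carbon and 644, 440.3 and 432 on sucrose (difference -0.98 ± 0.27, adjusted p = 0.0121), a fall that was not called with equal sums of FPKM (adjusted p = 0.718). cre-1 itself was at 189.8, 424 and 121 FPKM on no carbon and 566, 551 and 649.7 on sucrose. All 3 no carbon values lie below all 3 sucrose values, but they spread widely, with library 2 the highest, and the difference was not called (difference -1.46 ± 0.68, adjusted p = 0.089). col-26, a regulator of starch use, was not called either (difference 1.12 ± 0.57, adjusted p = 0.113), with library 2 again the highest on no carbon at 934 FPKM.

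A glucose transporter gene, a glucose sensor gene and most listed genes that digest starch rose with no carbon source added. Of 11 genes of starch use, 7 were called higher and 0 lower (median 2.94). gla-2, a glucoamylase, which cuts glucose from the ends of starch, was at 726, 591 and 768 FPKM on no carbon and 33.7, 34.1 and 33.2 on sucrose (difference 4.32 ± 0.15, adjusted p = 4.84e-07). The groups are far apart, with tight libraries on both sides. gla-1, the other glucoamylase, was at 1173, 641 and 544 FPKM on no carbon and 70.9, 47.5 and 48.2 on sucrose (difference 3.74 ± 0.54, adjusted p = 0.00037). The family 31 glycoside hydrolase genes gh31-1, at 698, 303 and 501 FPKM on no carbon and 12.9, 13.4 and 14.6 on sucrose (difference 5.02 ± 0.32, adjusted p = 4.1e-06), and gh31-3, at 764, 779 and 974 FPKM on no carbon and 25.1, 46.2 and 39.7 on sucrose (difference 4.50 ± 0.40, adjusted p = 2.12e-05), likewise showed no overlap. hgt-1, a high-affinity glucose transporter, was at 2623, 2929.8 and 2132 FPKM on no carbon and 76.99, 242 and 252 on sucrose (difference 3.91 ± 0.41, adjusted p = 5.62e-05), and sor-4, the glucose sensor also called rco-3, at 359, 557 and 349 FPKM on no carbon and 41.3, 100.3 and 76.6 on sucrose (difference 2.57 ± 0.34, adjusted p = 0.000229). Every no carbon library lies above every sucrose library for both. They were the 2 genes called of 3 in the list of sugar transport and sucrose cleavage. inv, the invertase gene that splits sucrose, did not change beyond its spread: it was at 414, 1401 and 432 FPKM on no carbon and 313, 426 and 468 on sucrose (difference 0.67 ± 0.96, adjusted p = 0.561), and no carbon library 2 stands above the other 5.

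The machinery for cellobiose, the disaccharide released from cellulose, was called higher in 8 of 11 genes (median 2.98). The 3 beta-glucosidase genes that the study deleted in its TBGK strain were all called higher. gh3-3 was at 463, 262 and 452 FPKM on no carbon and 2.28, 10.1 and 2.82 on sucrose (difference 6.20 ± 0.58, adjusted p = 3.03e-05), gh3-4 at 61.1, 67.6 and 98.2 FPKM on no carbon and 0, 0.983 and 0 on sucrose (difference 5.90 ± 0.78, adjusted p = 0.00022) and gh1-1 at 158, 204 and 205 FPKM on no carbon and 13.2, 47.1 and 16.04 on sucrose (difference 3.06 ± 0.41, adjusted p = 0.000252). For each, the lowest no carbon library is several times the highest sucrose one. cdt-2, a cellodextrin transporter, was at 506, 464 and 515 FPKM on no carbon and 5.58, 49.7 and 11.6 on sucrose (difference 4.94 ± 0.64, adjusted p = 0.000198), where sucrose library 2 stands above the other 2 sucrose libraries. cdh-2, listed by its name with cellobiose dehydrogenase, was at 21.9, 13.01 and 34.1 FPKM on no carbon and listed at 0 in all 3 sucrose libraries (adjusted p = 1.32e-05).

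Cellulase genes rose too, but from a low level to a low level. 6 of 9 tested cellulase genes (66.7%) were called higher (median 1.37), against 40.2% of all tested genes. Among weak genes that share was 64.85% for a mean under 10 FPKM and 48.03% from 10 to under 100 FPKM. The cellulase number was 3 without no carbon library 1 and 3 without no carbon library 3. After quantile normalization it was 2, where 2473 of all 8759 tested genes were higher. cbh-1, the main cellobiohydrolase, was at 116, 103 and 123 FPKM on no carbon and 11.2, 70.2 and 16.7 on sucrose (difference 2.21 ± 0.59, adjusted p = 0.00967). Its groups do not overlap, although sucrose library 2 comes near. On Avicel the same gene was at 186620, 86756 and 104215 FPKM, so the level without carbon is a small part of that on cellulose (Avicel minus no carbon, difference 10.02 ± 0.59, adjusted p = 2.17e-05). Across all genes, 493 (5.63%) were called between Avicel and no carbon. That number fell to 310 or 284 without no carbon library 1 or 3 and to 307 or 276 without Avicel library 2 or 3, and it was 908 without the shallowest library of each of the Avicel and sucrose groups. gh6-3, a family 6 glycoside hydrolase gene, was at 96.3, 94.99 and 107 FPKM on no carbon and 29.8, 50.1 and 36.5 on sucrose (difference 1.37 ± 0.32, adjusted p = 0.00496) and at 81467, 33297 and 45431 on Avicel.

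Hemicellulase genes were called higher in 6 of 8 cases (median 2.34). After quantile normalization 2 were higher and 1 lower, where 2473 of all 8759 tested genes were higher and 2535 lower. The xylanase gene gh10-2 was at 208, 157 and 501 FPKM on no carbon and 0, 42.96 and 7.97 on sucrose (difference 5.12 ± 1.23, adjusted p = 0.00581), and gh11-2 at 108, 165 and 215 FPKM on no carbon and 0, 66.8 and 5.07 on sucrose (difference 4.40 ± 1.22, adjusted p = 0.012). In both, sucrose library 2 is the highest on sucrose and library 1 is listed at 0, and no carbon is above all of them. On Avicel gh11-2 reached 126366, 84185 and 103438 FPKM. Among lytic polysaccharide monooxygenases, copper enzymes that cut crystalline cellulose by oxidation, 5 of 11 rose and 2 fell. gh61-6 was at 161, 132 and 197 FPKM on no carbon and 0, 8.33 and 5.70 on sucrose (difference 5.35 ± 0.79, adjusted p = 0.0004), whereas gh61-2 was at 17.4, 14.3 and 12.5 FPKM on no carbon and 102, 42.7 and 49.2 on sucrose (difference -1.97 ± 0.35, adjusted p = 0.00114). The family thus holds members on either side of sucrose, with no overlap in either. The largest change of all plant cell wall genes listed was in gh28-2, of the polygalacturonase family that cuts pectin, at 684, 337 and 675 FPKM on no carbon and listed at 0 in all 3 sucrose libraries (adjusted p = 4.23e-07). Its relative gh28-1 went the other way, at 18.1, 17.3 and 13.7 FPKM on no carbon and 67.5, 83.5 and 78.6 on sucrose (difference -2.16 ± 0.22, adjusted p = 5.24e-05).

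**Figure D3:**
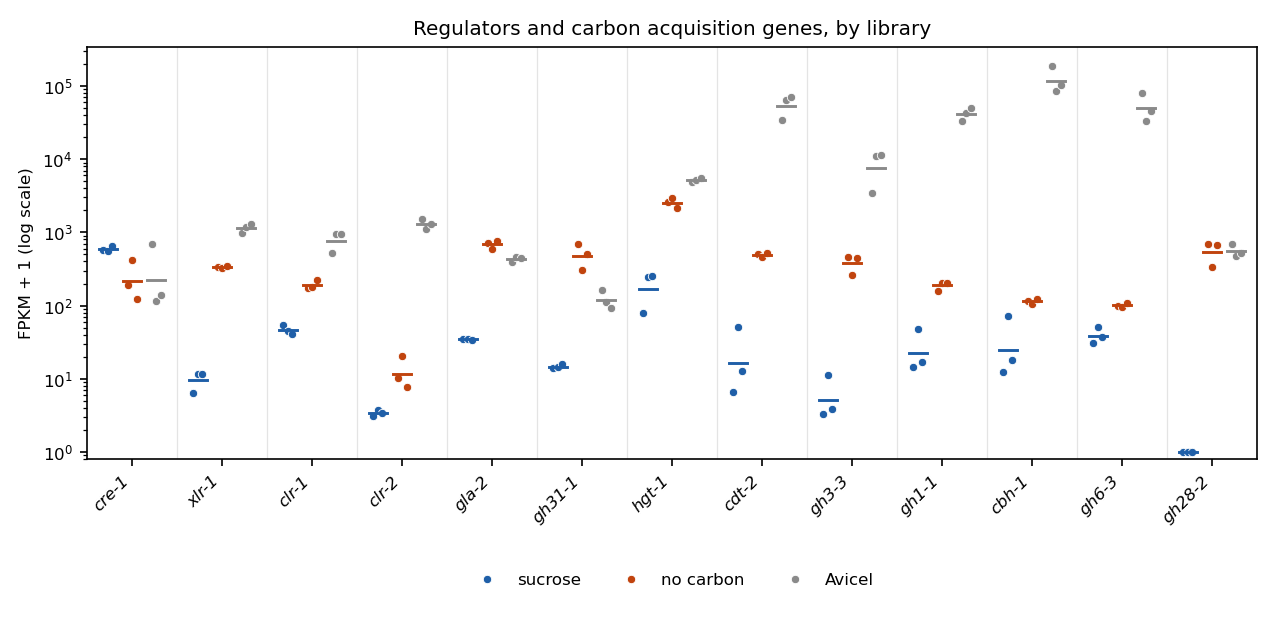
FPKM plus 1 (log scale) in each of the 3 sucrose, 3 no carbon and 3 Avicel libraries for regulators and genes of carbon acquisition; short lines are means on the log scale. For gla-2 and hgt-1 the no carbon libraries are within the same order of magnitude as those on Avicel, while for cbh-1, gh6-3, gh1-1 and cdt-2 they lie between sucrose and Avicel and far below Avicel.

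Central carbon metabolism turned in 2 directions. In the list of glycolysis, fermentation and the pyruvate dehydrogenase complex, 10 of 13 genes were called lower and 0 higher (median -2.48). emp-6, phosphoglycerate mutase, was at 211, 218 and 335 FPKM on no carbon and 7284, 5284 and 5032 on sucrose (difference -4.54 ± 0.50, adjusted p = 7.63e-05). ace-3, ace-2 and ace-4, genes of the pyruvate dehydrogenase complex that feeds the citric acid cycle, fell together. ace-3 was at 280.4, 282 and 243 FPKM on no carbon and 4996, 5063 and 6082 on sucrose (difference -4.32 ± 0.25, adjusted p = 2.62e-06), ace-2 differed by -3.64 and ace-4 by -3.29 on the log2 scale. No library of one group reaches the other.

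Genes of the glyoxylate cycle and gluconeogenesis, which make sugar from smaller molecules, were called higher in 4 of 6 cases and lower in 2. The rises were 2 in number without no carbon library 2, and likewise without sucrose library 2 or 3. fbp-1, fructose-1,6-bisphosphatase, was at 867, 1348 and 522 FPKM on no carbon and 88.02, 37.8 and 28.3 on sucrose (difference 4.19 ± 0.52, adjusted p = 0.00015), and acu-3, isocitrate lyase of the glyoxylate cycle, at 1874, 836 and 808 FPKM on no carbon and 524, 331 and 325 on sucrose (difference 1.50 ± 0.38, adjusted p = 0.00774). Neither overlaps. acu-6, phosphoenolpyruvate carboxykinase, was at 1161, 12642 and 599.8 FPKM on no carbon and 115, 33.1 and 38.3 on sucrose (difference 5.27 ± 1.67, adjusted p = 0.0214). No carbon library 2 is far above the other 2, and without it the difference was 3.96 (adjusted p = 0.0781). acu-6 also lost its call without sucrose library 2 or 3 (adjusted p = 0.0615 and 0.0593). acu-5, acetyl-CoA synthetase, which brings acetate into metabolism, went down, at 363, 304 and 246 FPKM on no carbon and 1809, 1356 and 1362 on sucrose (difference -2.31 ± 0.21, adjusted p = 2.74e-05), below every sucrose library.

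Of 5 genes of the reserve carbohydrates trehalose and glycogen, 2 were called higher and 2 lower. tre-1, the trehalase that splits trehalose into glucose, was at 336, 348 and 419 FPKM on no carbon and 3.04, 11.1 and 10.5 on sucrose (difference 5.48 ± 0.55, adjusted p = 4.65e-05). ccg-9, trehalose synthase, was at 109, 281 and 157 FPKM on no carbon and 55.6, 4.33 and 2.44 on sucrose (difference 4.07 ± 1.17, adjusted p = 0.0139), where sucrose library 1 stands above the other 2 sucrose libraries, and the call was lost without sucrose library 3 (adjusted p = 0.0516). gsy-1, glycogen synthase (also called gsn), was at 1038, 1035 and 1406 FPKM on no carbon and 2038, 1937 and 1912 on sucrose (difference -0.77 ± 0.16, adjusted p = 0.00302). It lay below sucrose with no overlap, a fall that was not called after quantile normalization (adjusted p = 0.188) and turned to 0.058 with equal sums of FPKM (adjusted p = 0.84).

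Genes that build amino acids made up the largest list and fell almost as a whole. 56 of 62 were called lower and 2 higher (median -3.15), and 55 were lower after quantile normalization and 47 with equal sums. ilv-2, of isoleucine and valine synthesis, was at 69.8, 63.8 and 79.4 FPKM on no carbon and 12406, 16204 and 19370.2 on sucrose (difference -7.78 ± 0.39, adjusted p = 1.5e-06). arg-3, a subunit of the carbamoyl-phosphate synthetase for arginine, was at 13.5, 11.3 and 22.9 FPKM on no carbon and 1582, 1885 and 2062 on sucrose (difference -6.82 ± 0.47, adjusted p = 5.55e-06). Within each group the libraries are close together, and the groups are far apart. lys-3 of lysine synthesis differed by -6.46, leu-2 of leucine synthesis by -6.21 and arg-5 of arginine synthesis by -6.06. The NADP-dependent glutamate dehydrogenase gene am, which builds ammonium into glutamate, was at 1787, 1583 and 1613 FPKM on no carbon and 14824, 18741 and 18475 on sucrose (difference -3.38 ± 0.22, adjusted p = 3.92e-06). cpc-1, the transcription factor of general amino acid control, was at 5524, 3654 and 4733 FPKM on no carbon and 6575, 11796 and 10410.1 on sucrose (difference -1.03 ± 0.28, adjusted p = 0.0114), and this smaller fall was not called with equal sums (adjusted p = 0.535) or after quantile normalization, where it turned to 0.71 (adjusted p = 0.0972). The exceptions were ilv-5, at 475, 1072 and 696 FPKM on no carbon and 233, 58.1 and 38.98 on sucrose (difference 3.11 ± 0.59, adjusted p = 0.00165), and the glutamine synthetase gene gln-2, at 3147, 6931 and 3549.9 FPKM on no carbon and 3129, 1689 and 1322 on sucrose (difference 1.16 ± 0.40, adjusted p = 0.0313). gln-2's lowest no carbon library lies just above its highest sucrose library, and its call was lost without no carbon library 2 or sucrose library 2 or 3 (highest adjusted p = 0.113).

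Other biosynthetic pathways went with the amino acids. eth-1, S-adenosylmethionine synthetase, was at 68.8, 74.5 and 88.6 FPKM on no carbon and 7530.0, 12987 and 14325 on sucrose (difference -7.17 ± 0.41, adjusted p = 2.54e-06). Of 8 genes for purines and pyrimidines, 7 were called lower (median -3.76), with a difference of -5.98 for ad-7 and -5.36 for ad-5. Of 18 genes for vitamins and inositol, 12 were lower and 2 higher. pdx-1, of vitamin B6 synthesis, was at 143, 215 and 234 FPKM on no carbon and 16419, 14043 and 13274 on sucrose (difference -6.22 ± 0.42, adjusted p = 5.51e-06). Its neighbour in the same pathway, pdx-2, fell as well (difference -3.64 ± 0.21, adjusted p = 2.62e-06), as did inl, inositol-1-phosphate synthase (difference -5.32 ± 0.55, adjusted p = 5.16e-05). rib-3, of riboflavin synthesis, rose instead, at 1291, 1387 and 828 FPKM on no carbon and 292, 174 and 143 on sucrose (difference 2.55 ± 0.36, adjusted p = 0.000312). The fatty acid synthase subunit genes cel-1, at 95.5, 17.7 and 52.7 FPKM on no carbon and 1936, 2233 and 2409.6 on sucrose (difference -5.57 ± 0.51, adjusted p = 2.52e-05), and cel-2 (difference -4.50 ± 0.48, adjusted p = 6.12e-05) were below every sucrose library, and in both no carbon library 2 is the lowest.

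The translation apparatus fell. All 8 tested genes of cytosolic ribosomal proteins with a symbol were called lower (median -3.99), as they were under quantile and equal-sum scaling. crp-10 was at 1651, 634 and 805 FPKM on no carbon and 16632, 26926 and 30368 on sucrose (difference -4.66 ± 0.66, adjusted p = 0.000329). No carbon library 1 is above the other 2, and sucrose library 1 is below the other 2, yet the groups stay far apart. These 8 genes together held 0.734, 0.291 and 0.386% of the summed FPKM on no carbon, against 2.92, 5.01 and 4.79% on sucrose. tef-1, elongation factor 1-alpha and the most abundant transcript on sucrose, was at 34398, 39019 and 42184 FPKM on no carbon and 154487, 176205 and 188323 on sucrose (difference -2.17 ± 0.51, adjusted p = 0.00543). The 3 translation factors, tef-1 among them, were called lower as deposited and with equal sums, but 0 of them after quantile normalization (adjusted p = 0.143 for tef-1).

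Mitochondrial genes fell except for most of complex I. 19 of 20 genes of protein import (median -2.23) and all 7 of mitochondrial gene expression (median -2.77) were called lower. So were all 11 in the list of the respiratory chain outside complex I (median -2.22), which also holds genes of the ATP synthase and of citrate synthase. After quantile normalization 9 of these 11 were lower (median -0.82). cyc-1, cytochrome c, was at 259.6, 855 and 176 FPKM on no carbon and 11453, 19811 and 17131 on sucrose (difference -5.53 ± 0.62, adjusted p = 8.46e-05), with no carbon library 2 the highest of its group. tim54, of the inner membrane import machinery, differed by -3.80, and cyt-18, the mitochondrial tyrosyl-tRNA synthetase that also helps introns splice, by -3.96. Of 29 complex I genes, 4 were called higher and 5 lower around a median of -0.051. Their direction depends on the scaling, since 10 were higher and 0 lower after quantile normalization, and 23 and 0 with equal sums. Of all 8759 tested genes, 2473 were higher after quantile normalization and 5210 with equal sums.

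The alternative NADH dehydrogenases, single-protein enzymes that bypass complex I, parted ways. In their list with the alternative oxidase, 2 of 8 genes were called higher and 2 lower. ndi-1 was at 9.58, 7.04 and 6.80 FPKM on no carbon and 262, 819 and 990.2 on sucrose (difference -6.10 ± 0.51, adjusted p = 1.63e-05) and nde-2 at 47.4, 52.8 and 38.2 FPKM on no carbon and 1731, 3537 and 3964 on sucrose (difference -5.95 ± 0.31, adjusted p = 1.79e-06). Every no carbon value is below every sucrose value in both. nde-1 and nde-3 were called higher by small differences (1.18 and 0.47), and both calls were lost when single libraries were left out (highest adjusted p = 0.0891 and 0.0793). The rise of nde-3 was not called after quantile normalization either (adjusted p = 0.167). aod-1, the alternative oxidase, was at 74.3, 846 and 38.8 FPKM on no carbon and 737, 192 and 291 on sucrose and was not called (difference -1.34 ± 1.93, adjusted p = 0.559). Its no carbon library 2 lies above every sucrose library and the other 2 lie below.

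Chaperones and the plasma membrane pump fell as well. 8 of 10 heat shock and chaperone genes were lower (median -2.32). hsp70-2 was at 284, 436 and 328 FPKM on no carbon and 14734, 31180 and 35572 on sucrose (difference -6.20 ± 0.80, adjusted p = 0.000194), and hsp60, the mitochondrial chaperonin, at 72.1, 45.3 and 62.9 FPKM on no carbon and 1991, 2222 and 2555 on sucrose (difference -5.23 ± 0.25, adjusted p = 1.36e-06). No value of one group falls in the other. pma-1, the proton pump that drives nutrient uptake, was at 3614, 5797 and 2928 FPKM on no carbon and 20595, 15545 and 17585 on sucrose (difference -2.17 ± 0.28, adjusted p = 0.000202). After quantile normalization the fall of pma-1 was not called (adjusted p = 0.45).

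**Figure D4:**
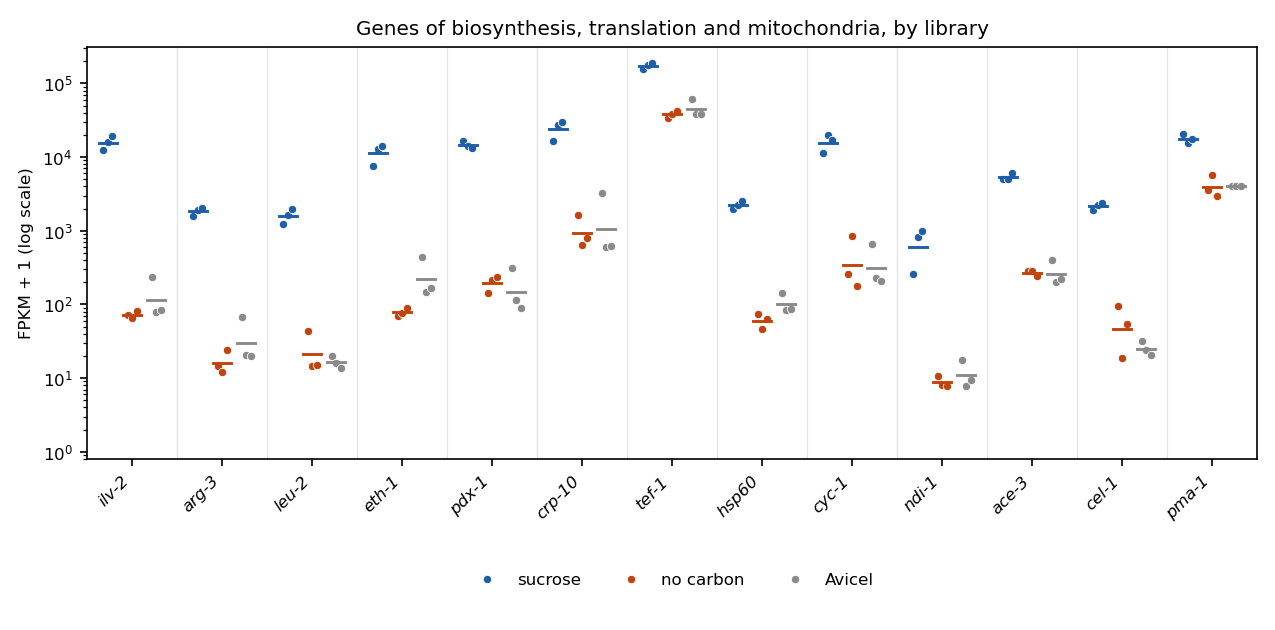
FPKM plus 1 (log scale) per library on sucrose, no carbon and Avicel for genes of amino acid, cofactor and fatty acid synthesis, translation, chaperones, mitochondria and the proton pump; short lines are means on the log scale. All 3 no carbon libraries lie below all 3 sucrose libraries for each gene shown.

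Genes of the vacuole that break down the cell's own material rose. All 3 genes of the vacuolar list were called higher. pep4, the vacuolar protease proteinase A, was at 9527, 7115 and 7277 FPKM on no carbon and 2285, 1402 and 1237 on sucrose (difference 2.32 ± 0.27, adjusted p = 0.000104). apg-1, an autophagy kinase gene, was at 354, 222 and 294 FPKM on no carbon and 82.4, 65.9 and 55.2 on sucrose (difference 2.07 ± 0.24, adjusted p = 0.000107), and atg-8, whose product coats autophagosomes, at 5546, 5516 and 4628 FPKM on no carbon and 2188, 1547 and 1202 on sucrose (difference 1.71 ± 0.23, adjusted p = 0.00027). The groups are apart for each. Of 30 proteasome genes, 0 were called higher and 10 lower (median -0.37), and 5 were lower without no carbon library 1 or 3 or without sucrose library 1. With equal sums 3 were higher and 0 lower, so no direction holds for them across scalings. V-ATPase genes, whose products acidify the vacuole, were higher in 4 of 14 cases and in 2 without sucrose library 3, below the background share. With equal sums all 14 were higher, where 5210 of all 8759 tested genes were.

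Of 13 nitrogen genes, 3 were called higher and 6 lower, and 5 were higher when Avicel library 1, which shares the fit, was left out. gdh-1, the NAD-dependent glutamate dehydrogenase that releases ammonium from glutamate, was at 4034, 2422 and 1839.7 FPKM on no carbon and 121, 99.3 and 103 on sucrose (difference 4.60 ± 0.52, adjusted p = 9.28e-05), opposite to am. xdh-1, xanthine dehydrogenase of purine breakdown, was at 206, 385 and 209.9 FPKM on no carbon and 89.8, 52.2 and 50.7 on sucrose (difference 2.03 ± 0.30, adjusted p = 0.000409). nit-3, nitrate reductase, was lower, at 80.3, 43.4 and 79.2 FPKM on no carbon and 757, 488 and 469 on sucrose (difference -3.08 ± 0.45, adjusted p = 0.000374), nit-6, nitrite reductase, differed by -2.27 and nit-10, a nitrate transporter, by -3.41. The neutral amino acid permease gene mtr was at 185, 872 and 85.2 FPKM on no carbon and 3631, 3100.3 and 3709 on sucrose (difference -3.85 ± 0.86, adjusted p = 0.00406), with no carbon library 2 above the other 2 but below sucrose. Peroxisome genes held a few clear rises, with pex11, of peroxisome proliferation, at 1171, 1403 and 1298 FPKM on no carbon and 216, 230.0 and 196 on sucrose (difference 2.59 ± 0.23, adjusted p = 2.47e-05) and fox-2, of fatty acid beta-oxidation, at 1547, 1326 and 1346 FPKM on no carbon and 739, 348 and 363 on sucrose (difference 1.63 ± 0.28, adjusted p = 0.00102).

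Conidiation genes were among the largest rises. Of the 11 listed genes of conidiation and its control that are left without the acw genes, 9 were called higher and 0 lower (median 3.53, against 1.12 for the list as drawn up). With quantile normalization, with median-of-ratios scaling or without no carbon library 2, 9 were higher and 1 lower. con-8 was at 3029, 4498 and 7958 FPKM on no carbon and 0, 12.2 and 3.47 on sucrose (difference 10.26 ± 0.88, adjusted p = 1.84e-05), con-10 at 1399.9, 1850.5 and 2575 FPKM on no carbon and 0, 5.38 and 0 on sucrose (difference 9.99 ± 0.80, adjusted p = 1.32e-05) and con-6 at 1516, 5383 and 4879 FPKM on no carbon and 0, 8.01 and 3.85 on sucrose (difference 9.92 ± 0.87, adjusted p = 2.11e-05). These genes are known for expression in conidiating cultures, and on sucrose they were at or near 0. eas, the hydrophobin that coats conidia, was at 206272, 78251 and 65514 FPKM on no carbon and 62.5, 388 and 155 on sucrose (difference 9.34 ± 0.68, adjusted p = 7.65e-06). It held 5.80, 2.14 and 1.81% of all FPKM on no carbon, where library 1 is well above the other 2. fl, the transcription factor that commits hyphae to conidiation, was at 223, 94.00 and 198 FPKM on no carbon and 28.1, 36.04 and 37.6 on sucrose (difference 2.22 ± 0.34, adjusted p = 0.000513), and csp-1, of conidial separation, at 387, 425 and 1457 FPKM on no carbon and 150.0, 124 and 143 on sucrose (difference 2.16 ± 0.44, adjusted p = 0.00245). The no carbon libraries are above sucrose for both, with csp-1 highest in library 3.

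The labels name no tissue or cell type beyond growth from conidia in medium, so markers were summed. The 8 conidial and aerial markers found of 9 summed to 82721 to 213035 FPKM on no carbon and 244 to 584 on sucrose, where con-13 was at 0 in all 3 libraries. All 8 were called higher, and the sum is mostly eas. The 4 sexual markers found of 5 summed to 1203 to 1689.8 on no carbon and 71.7 to 184 on sucrose, with 2 higher and 1 lower. On no carbon that sum is mostly the pheromone precursor gene ccg-4, so it does not speak for the markers as a set. The 4 mycelial markers found of 6 summed to 13537 to 16359.7 and 32969.5 to 41948, with pma-1 and the beta-tubulin gene Bml lower (for Bml difference -1.36 ± 0.18, adjusted p = 0.000244, but adjusted p = 0.468 after quantile normalization and 0.114 with equal sums). act, actin, was at 7256, 7199.8 and 7333 FPKM on no carbon and 12604, 10480.2 and 10116 on sucrose and was not called (difference -0.60 ± 0.24, adjusted p = 0.0568). It was called higher after quantile normalization (1.28, adjusted p = 0.0157). How much of any result follows a change in cell types was not tested.

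The clock-controlled gene ccg-1, also known as the glucose-repressible gene grg-1, was the most abundant transcript of no carbon libraries 2 and 3. It was at 171706, 255469 and 301939 FPKM on no carbon and 1411, 1327 and 328 on sucrose (difference 8.12 ± 0.67, adjusted p = 1.52e-05). Its share of all FPKM was 4.83, 6.99 and 8.35% on no carbon, against 0.0267, 0.0187 and 0.00464% on sucrose. ccg-1 and eas together held 10.6, 9.13 and 10.2% of the summed FPKM on no carbon. FPKM shares weigh transcripts per length, so these are shares of transcripts and not of reads. Of 9 ccg genes, 6 were called higher and 1 lower. On sucrose the 6 most abundant transcripts included, beside tef-1, those of the ADP/ATP carrier gene aac, the ATP synthase subunit gene oli and the ribosomal protein gene crp-5, which are named here for their abundance. ccg-4, a pheromone precursor gene, was at 1034, 1562 and 1409 FPKM on no carbon and 6.37, 45.2 and 25.1 on sucrose (difference 5.99 ± 0.66, adjusted p = 7.26e-05).

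Light and clock genes were called higher in 13 of 19 cases and lower in 1. nop-1, an opsin, was at 801, 529 and 894 FPKM on no carbon and 0, 3.87 and 2.11 on sucrose (difference 8.19 ± 0.57, adjusted p = 6.35e-06), and the light-induced gene bli-3 at 5595, 7113 and 10740 FPKM on no carbon and 91.9, 122 and 48.3 on sucrose (difference 6.51 ± 0.54, adjusted p = 1.62e-05). al-1, phytoene desaturase of the orange carotenoids, was at 463, 2455 and 4181 FPKM on no carbon and 105, 51.1 and 54.9 on sucrose (difference 4.64 ± 0.72, adjusted p = 0.000514). The groups do not overlap, but on no carbon library 1 is several times below library 3. vvd, a blue-light photoreceptor that adapts the light response, showed the same order among libraries, at 1219, 5123 and 7316 FPKM on no carbon and 326, 495 and 445 on sucrose. Light during growth and harvest is given nowhere in the labels, and its part in these values was not tested. frh, whose product binds the clock protein FRQ, was lower, at 72.8, 79.2 and 87.96 FPKM on no carbon and 139, 539.9 and 584 on sucrose (difference -2.13 ± 0.48, adjusted p = 0.00423), with sucrose library 1 the lowest of its group.

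Of 7 tested mating genes, 4 were called higher and 1 lower, from low levels on sucrose. matA-1, a mating type regulator, was at 173, 167 and 241 FPKM on no carbon and 0, 9.58 and 7.56 on sucrose (difference 5.42 ± 0.98, adjusted p = 0.00129), and the pheromone receptor gene pre-1 at 93.96, 107 and 157 FPKM on no carbon and 2.54, 12.3 and 10.1 on sucrose (difference 3.87 ± 0.93, adjusted p = 0.00587). pre-2, the other receptor gene, was at 18.3, 14.4 and 18.99 FPKM on no carbon and listed at 0 in all 3 sucrose libraries (adjusted p = 6.6e-06). The no carbon libraries are close together and above sucrose for all 3 genes.

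Of the genes for oxidative stress, the catalases stood out. cat-2 was at 2588, 2627 and 3828 FPKM on no carbon and 41.3, 15.7 and 11.1 on sucrose (difference 7.18 ± 0.41, adjusted p = 2.45e-06) and cat-1, abundant in conidia, at 1397, 1343 and 2016 FPKM on no carbon and 85.7, 59.3 and 13.4 on sucrose (difference 5.21 ± 0.64, adjusted p = 0.000147). cat-3, the catalase of growing hyphae, went the other way, at 189, 157 and 213 FPKM on no carbon and 1260.3, 382 and 337 on sucrose (difference -1.56 ± 0.44, adjusted p = 0.0135), a fall that was not called with equal sums (adjusted p = 0.221). None of the 3 overlaps between groups. The list as a whole had 4 members higher and 3 lower of 13, near the background. Of 9 tested chitinase genes, 6 were higher and 1 lower, and 3 and 2 after quantile normalization. gh18-7 was at 443, 429 and 463 FPKM on no carbon and 74.7, 51.98 and 50.3 on sucrose (difference 2.92 ± 0.30, adjusted p = 5.53e-05), and chit-1 at 83.5, 15.1 and 12.6 FPKM on no carbon and 726, 435 and 581 on sucrose (difference -4.43 ± 0.61, adjusted p = 0.000273). Of 6 genes for chitin and glucan synthesis, 1, the chitin synthase gene chs-4, was called (difference 0.94 ± 0.14, adjusted p = 0.0004). Other lists held few calls. The qa cluster for quinate use had 1 of 5 higher and 0 lower, and histones 1 of 9 higher and 2 lower. Neither count is steady: with single libraries left out, qa genes called higher numbered 0 to 3, and histones 0 to 2 higher and 0 to 3 lower. After quantile normalization 3 histones were higher and 0 lower, and with equal sums 4 qa genes were higher. Genes of phosphorus and sulfur uptake had 2 of 10 higher and 5 lower, those of cell cycle and growth signalling 2 of 10 and 2, and those of proton and ion transport 1 of 6 and 3.

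**Figure D5:**
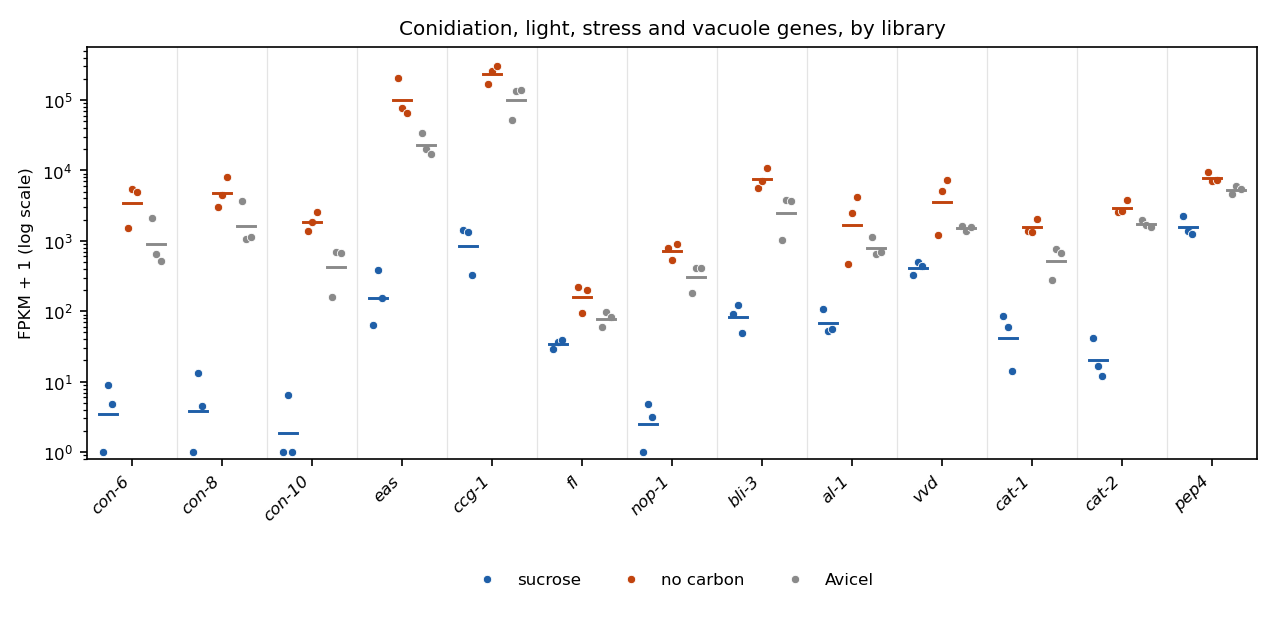
FPKM plus 1 (log scale) per library on sucrose, no carbon and Avicel for genes of conidiation, light, stress and the vacuole; short lines are means on the log scale. All 3 no carbon libraries lie above all 3 sucrose libraries for each gene shown, and for eas, al-1 and vvd the no carbon libraries are spread over a wide range.

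The largest rises of all include genes with no symbol. NCU08856 was at 1475, 2688 and 3081 FPKM on no carbon and 0, 2.55 and 0 on sucrose (difference 10.56 ± 0.49, adjusted p = 1.22e-06), and NCU06895 at 2446, 2958 and 502 FPKM on no carbon and 0, 2.24 and 0 on sucrose (difference 10.02 ± 0.76, adjusted p = 9.71e-06), with library 3 the lowest on no carbon. NCU08491 was at 1238, 1299.6 and 1568 FPKM on no carbon and listed at 0 in all 3 sucrose libraries (adjusted p = 4.01e-09). The largest falls were NCU03561, at 1.76, 3.25 and 2.77 FPKM on no carbon and 1377, 3052 and 3355 on sucrose (difference -9.42 ± 0.65, adjusted p = 5.92e-06), ilv-2, NCU09497, at 25.4, 21.5 and 5.53 FPKM on no carbon and 1971, 3907 and 4066 on sucrose (difference -7.65 ± 0.69, adjusted p = 2.39e-05), and NCU00963, at 8.26, 16.9 and 19.9 FPKM on no carbon and 1299, 3355 and 3144 on sucrose (difference -7.31 ± 0.64, adjusted p = 2.06e-05). For each of these 3 falls without a symbol the level on no carbon is under 30 FPKM in every library and over 1000 FPKM on sucrose. gh47-5, a family 47 glycoside hydrolase gene, was at 1229, 443 and 1038 FPKM on no carbon and 3.05, 4.42 and 6.00 on sucrose (difference 7.27 ± 0.38, adjusted p = 1.79e-06), and app at 417, 3699 and 354 FPKM on no carbon and 0, 12.2 and 11.8 on sucrose (difference 7.21 ± 1.35, adjusted p = 0.00159), where no carbon library 2 is far above the other 2.

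A small part of the genes that rose by at least 4-fold lay in runs on the chromosomes. Runs of 4 or more adjacent genes, each called higher by at least 4-fold, numbered 57 and held 266 of 1812 such genes (14.7%). For falls there was 1 run of 4 among 843 genes (0.474%). Rises outnumber falls, so more runs are possible. The number of runs that so many genes would form in any order was not worked out, and no test was made. con-6 stood at the end of a run of 7 genes on contig supercont10.3, from base 5190118 to 5205927 of the coordinates in the files, whose build is not given in the sources used here. con-10 and con-13 lay side by side in a run of 5 on contig supercont10.4, from base 4363328 to 4372957, whose members differed by 3.50 to 9.99 on the log2 scale. The library protocol names no strand marking, so reads from overlapping neighbours cannot be told apart.

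1 more sucrose library, from the TBGK strain that lacks 3 beta-glucosidase genes, was not used in any test. Of the 1812 genes called higher by at least 4-fold, 1784 (98.5%) were lower in it than in every no carbon library. Of the 843 called lower by at least 4-fold, 841 (99.8%) were higher in it than in every no carbon library. The genes were chosen by their values in the same no carbon libraries, which in large part sets these shares in advance. The TBGK value lay within the range of the wild-type sucrose libraries for 793 of the 1812 genes and 411 of the 843. The TBGK sucrose library had eas at 72.1 FPKM, ccg-1 at 1254, con-10 at 2.88, xlr-1 at 8.88 and ilv-2 at 10704. Each of these 5 values is on the sucrose side of all 3 no carbon libraries.

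Levels on Avicel can be set beside those without a carbon source. Both comparisons use the no carbon libraries and are not independent, so values are given, with the Avicel test for some genes. pep4 was at 4675, 6016 and 5481 FPKM on Avicel, crp-10 at 3275, 595 and 613 and ilv-2 at 235, 78.05 and 83.7. Avicel library 1, the shallowest of its group, is the highest of the 3 for the last 2 genes. eas was at 34619.9, 20371 and 17326 on Avicel and ccg-1 at 52427, 135310 and 138708, and neither was called between Avicel and no carbon (difference -2.15 ± 0.68, adjusted p = 0.124 for eas, and difference -1.25 ± 0.67, adjusted p = 0.353 for ccg-1). The regulators clr-1 and clr-2 were at 519, 936 and 950.3 and at 1521, 1122 and 1289.6 FPKM on Avicel, both called higher there than without carbon (difference 2.03 ± 0.25, adjusted p = 0.00192 for clr-1, and difference 6.80 ± 0.35, adjusted p = 9.57e-06 for clr-2).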

How the data were processed

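Messenger RNA from 13 cultures was sequenced, and the 6 libraries compared here are 3 on sucrose and 3 without a carbon source, grouped by their titles. The authors deposited FPKM per transcript. The submitters' processing notes name TopHat and, at version 0.9.3, Cufflinks. The genome build is not given in the sources used here. The deposited coverage (signal) per transcript, with its length, was used only to estimate the aligned bases. FPKM was used as deposited, with the transcripts of each NCU gene summed, which gave 9733 genes. Symbols came from a RefSeq gene table that matched 9016 of them by locus tag.

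Genes at 1 FPKM or more in at least 3 of the 9 wild-type triplicate libraries were kept, 8759 in all. limma 3.58.1 in R 4.3.3 fitted log2(FPKM + 1) with an intensity trend over the Avicel, no carbon and sucrose libraries, which share 1 estimate of the spread. p-values were adjusted by Benjamini and Hochberg over all 8759 genes and called under 0.05. The scale with 1 added understates the change of low genes, and no fold is given where a group is listed at 0. The fit was tested on simulated data.

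The members and the gene lists were chosen with earlier results of these data known, and lists were matched by symbol, so they hold the genes with a symbol and not whole pathways. Of 42 lists, the 38 with at least 3 matched genes are reported, and the conidiation list is also given in 2 pieces, split after values were seen. The genes named include the 10 largest rises and falls with a symbol and the 4 largest of any kind. These were taken from called genes whose groups do not overlap and whose higher group had a mean of at least 50 FPKM. For them the lack of overlap was thus fixed by the choice. The others are up to 4 called members per list and direction, and a fixed set of carbon and development genes. 2 genes of that set, glt-1 and gpn, had no match in the table. Not every gene the rule allows is printed.

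The replicate numbers were not used to pair the samples. The deviations of same-numbered libraries from their group means had correlations of -0.116, -0.094 and -0.02, and those of other pairs ran from -0.116 to 0.159. Such deviations cancel within each group, so these values cannot show whether cultures were paired. Alternatives were other scalings, pseudocounts and filters, a fit of the 6 libraries alone, a replicate block, a covariate for the first residual component and fits with libraries left out. With no statement on how cultures were kept apart beyond the word biological, p-values measure the spread between these samples. Without a reference genome no sequence was read.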

Additional observations from a re-analysis of the deposited data

How the results depend on the processing

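The scaling of the FPKM values moves the balance of rises and falls, and the cause was not tested. The number of genes called higher was 3522 as reported and ran from 2473 after quantile normalization to 5210 with equal sums. The number called lower was 2111 and fell to 1100 with equal sums. Rises of at least 2-fold numbered 1950 after quantile normalization and 4606 with equal sums, and such falls 920 with equal sums. Every other alternative kept these 4 counts within 1.5 times. When each library was left out in turn, 3042 to 3791 genes were called higher and 1814 to 2274 lower. With the replicate block 3479 were higher and 2050 lower, and the main fit did not use the numbers to pair samples. Median-of-ratios scaling gave 3368 higher and 2305 lower, a pseudocount of 0.1 gave 3454 and 2099 and one of 10 gave 3489 and 2117. Without the filter 3560 and 2103 were called, and with a mean of at least 10 FPKM 2900 and 2102.

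The number of genes called between Avicel and no carbon, 493 as reported, ran from 276 to 627 with single libraries left out, and was 908 without the shallowest Avicel and sucrose libraries and 1135 when a covariate for the first residual component was added; the cause was not tested. With the replicate block it was 374.

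Of the 116 genes named in the report, 111 were called, and 98 of these kept their sign and call in all 20 alternatives. Under quantile normalization the difference became 1.28 for act, -0.43 for clr-2 and 0.71 for cpc-1, and with equal sums 0.058 for gsy-1. Calls were lost for Bml, pma-1, tef-1, cat-3, vib-1, cpc-1, gsy-1, clr-2 and nde-3 under quantile or equal-sum scaling, and for acu-6, ccg-9, gln-2, nde-1 and nde-3 when single libraries were left out. gln-2 and nde-1 also lost their calls in the fit of 6 libraries alone, and gln-2 and nde-3 with median-of-ratios scaling. Sucrose library 1, with 480.1 megabases aligned, lists 2341 genes at 0. Sucrose library 2 lists 1645 at 0 and no carbon library 1 lists 1002, at 2149.9 and 2102 megabases. Their coverage per FPKM, which sets the smallest visible level, was 0.238 and 0.402 in the same order. The part of depth in the genes at 0 was not tested.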

Other observations

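Several of the most abundant transcripts without carbon have not been described above, and they are named here for their abundance. ccg-16, a member of the ccg list, held 0.855, 1.77 and 1.58% of the summed FPKM on no carbon, against 0.260, 0.204 and 0.199% on sucrose. NCU05498 held 0.862, 0.941 and 0.931% on no carbon, against 0.0598, 0.0160 and 0.000805% on sucrose, and NCU11774 held 0.872, 0.764 and 0.855% against 0.0578, 0.0239 and 0.0200%. NCU10040 held 0.371, 0.828 and 0.941% on no carbon, with library 1 the lowest, and 0.00310, 0.00552 and 0.00301% on sucrose. For each of these 4 genes all 3 no carbon libraries lie above all 3 sucrose libraries.

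The median transcript length was 1533 bases for genes that rose by at least 2-fold, 1674 for those that fell by at least 2-fold and 1736 for genes not called.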
